A study of Mus musculus with 6 samples.

Results

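The serpins of primary mouse embryonic fibroblasts were followed on Agilent Whole Mouse Genome arrays through 63 of the 41174 non-control probes, chosen because their gene name begins with Serpin. These probes carried 48 of the 29742 gene names on the array, 33 of them with 1 probe and 15 with several. By clade letter there were 16 genes of clade A, 23 of clade B, 2 each of clades F and I, and 1 each of clades C, D, E, G and H. Each gene was represented by its probe with the highest mean intensity over the arrays.

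Serpins are a family of proteins that share a fold with an exposed loop. In most members a target protease cuts this loop as if it were a substrate and is then trapped in a covalent complex, so that both proteins are used up. Clade A holds mainly secreted plasma proteins made by the liver, and clade B holds proteins that mostly stay inside the cell, where they guard against proteases of granules and lysosomes. A few members inhibit no protease, such as Serpinh1 (Hsp47), the chaperone of collagen in the endoplasmic reticulum, and Serpinf1 (pigment epithelium-derived factor). In fibroblasts, Serpine2 (protease nexin) restrains thrombin and plasminogen activators around the cell.

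The cells came from embryos of day 15 and were either wild type or homozygous for a Wrn allele that lacks part of the helicase domain. Wrn is the mouse homologue of the gene mutated in Werner syndrome. Each of 6 arrays carried a pair of RNA samples, one in the dye Cy5 and the other in Cy3, and each of the 3 comparisons had 2 arrays. In the first, wild type cells exposed to 0.5 mM H2O2 for 1 h and left for 24 h in fresh medium were set against untreated wild type cells (replicates 1 and 2). Wrn mutant cells treated in the same way were set against untreated Wrn mutant cells (replicates 1 and 2), and untreated Wrn mutant cells were set against untreated wild type cells (replicates 3 and 4). The labels call the replicates biological. Dyes were never swapped, so treated RNA was always in Cy5 and a dye effect cannot be told apart from treatment or genotype within a comparison. In bulk RNA, fewer cells of a type and less RNA per cell cannot be told apart either.

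Across the arrays, 75.8 to 90.0% of the non-control spots were well above background in Cy3 and 41.5 to 69.2% in Cy5. Between 166 and 9368 spots per array were marked as outliers by the scanner software, most of them on the wild type replicate 2 array, and these were left out of the ratios. Among the 63 Serpin probes, 12 were marked on that array and 0 to 4 on the others. No Serpin spot was saturated. Of 12 fibroblast markers, 11 were well above background in both dyes on all 6 arrays, against 1 of 12 hepatocyte markers (Apob), 2 of 11 macrophage markers and 1 of 9 mast cell markers. So were 2 of 10 keratinocyte markers (Krt1-14 and Krt1-10) and 2 of 8 neuron markers.

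Of the 48 Serpin genes, 14 were well above background in both dyes on all 6 arrays (29.2%), compared with 41.2% of all genes, and 30 were so in Cy3 on all arrays (62.5%, compared with 68.8%). The 14 were Serpina1d, Serpina9 and Serpina10 of clade A, Serpinb1b, Serpinb1c, Serpinb3c, Serpinb3d, Serpinb6a, Serpinb6b, Serpinb6c and Serpinb8 of clade B, and Serpine2, Serpinf1 and Serpinh1 of clades E, F and H. Serpina3a and Serpind1 (heparin cofactor, an inhibitor of thrombin) were not well above background in either dye on any array. The 2 members of clade I, Serpini1 (neuroserpin) and Serpini2, were not above background in Cy3 on all arrays. Clade A held 3 genes above background in both dyes throughout, of 16, and clade B held 8 of 23.

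The probe for Serpinh1 had a mean log2 intensity of 12.38 over the arrays, that for Serpinb6a 11.48, that for Serpinf1 11.34 and that for Serpinb6c 11.16. Intensities of different probes depend on the probe as well as on the RNA, so they do not rank the genes. Serpinb6a and Serpinb6c belong to a group of mouse genes related to the inhibitor of cathepsin G and are close in sequence, so their probes may share target. The mean log2 intensity was 8.73 for Serpine2, and the median over the 48 genes was 5.30, compared with 5.74 over all genes.

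**Figure D1:**
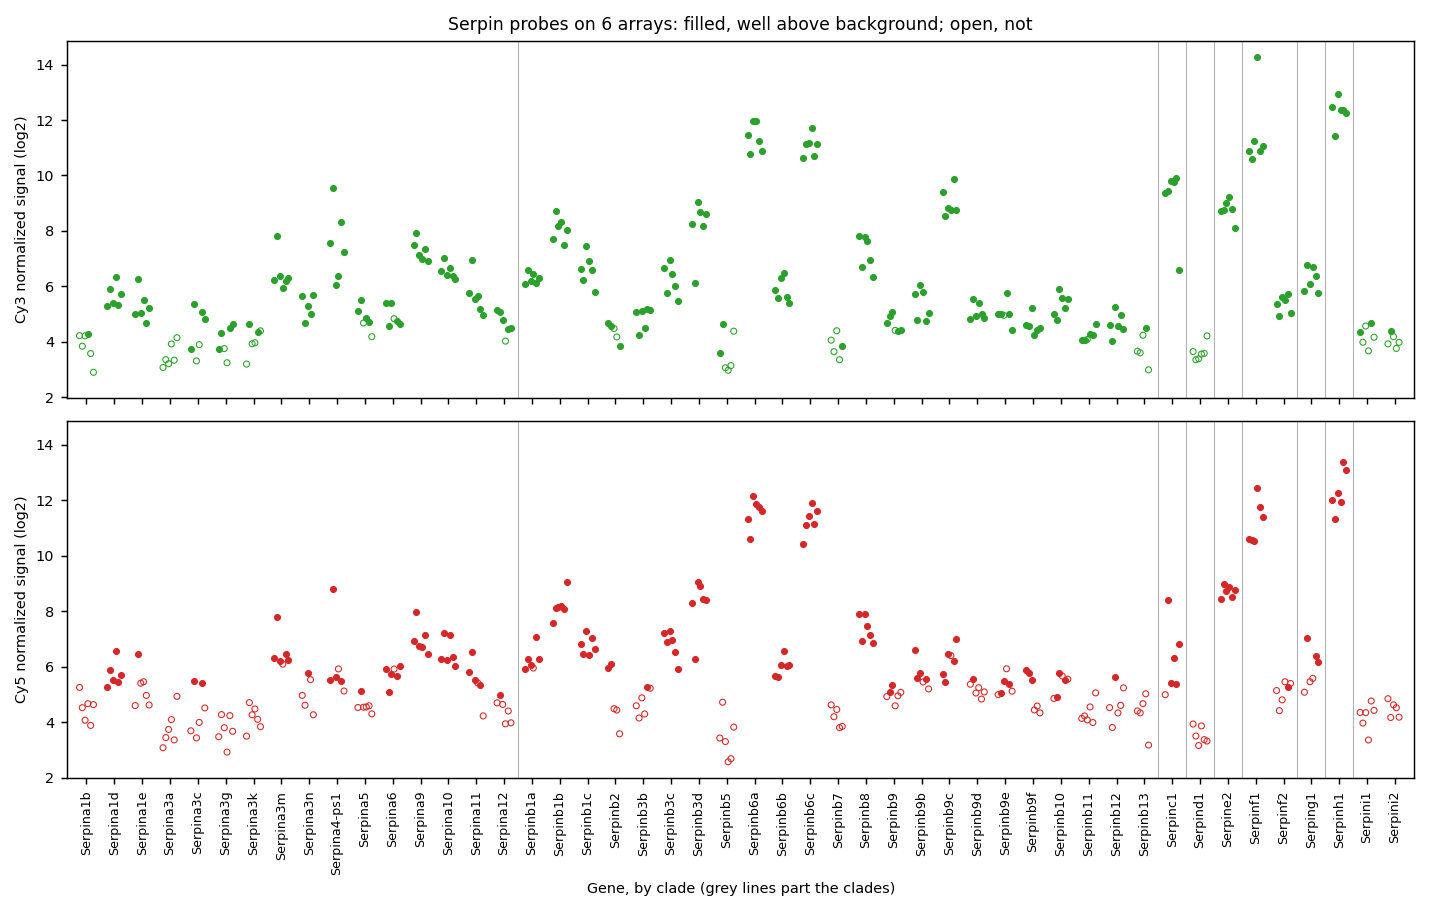
Normalized log2 signal of the representative probe of each of the 48 Serpin genes in Cy3 (top) and Cy5 (bottom), with 1 point per array in the order wild type 1 and 2, mutant 1 and 2, genotype 3 and 4. Filled points were well above background and open points were not, so the 14 genes filled in every position are those measured throughout, and levels of different probes are not comparable.

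The first comparison asked which genes of wild type cells respond to H2O2. Serpinb2 (an inhibitor of urokinase kept mainly inside the cell) and Serpinb9f rose in treated wild type cells, by 2.65 and 2.35 times. They were 2 of 46 Serpin genes with a value, where 0.853% of all genes were called in either direction and 0.454% were called higher. No Serpin gene was called lower (0.399% of all genes), though Serpina4-ps1 and Serpinb9c lay just short of the threshold. The median log2 ratio was -0.03 over the Serpin genes and 0.00 over all genes.

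The Serpinb2 probe gave log2 ratios of 1.28 and 1.52 on the wild type arrays. Its Cy3 signal (untreated) was 4.67 and 4.56 on the log2 scale, and its Cy5 signal (treated) was 5.95 and 6.08. Both treated values thus lay above both untreated ones. The mean log2 ratio was 1.40 (SE 0.18, n = 2, limma adjusted p = 0.0474). The second Serpinb2 probe gave 1.69 and 1.54, with a mean of 1.61 (SE 0.20, limma adjusted p = 0.0415), and its Cy3 signal was not well above background on either array, so the treated level was at least 3.06-fold higher. That bound sets Cy5, per array, against the higher of the probe's own Cy3 signal and the lowest Cy3 signal well above background. Here the probe's own signal was the higher, so the bound equals the fitted ratio, and it is open to dye bias. In Wrn mutant cells the representative probe was at -0.00 and 0.25, with neither dye well above background on either array.

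Serpinb9f belongs to a cluster of mouse genes related to Serpinb9, the inhibitor of granzyme B. Its probe gave log2 ratios of 1.28 and 1.19 in wild type cells, with a mean of 1.24 (SE 0.16, n = 2, limma adjusted p = 0.0437). In Wrn mutant cells it gave 0.29 and 0.20. The second probe gave 0.56 and 0.96 in wild type cells, with a mean of 0.76 (SE 0.19) that did not pass the test (limma adjusted p = 0.0864). Its Cy3 signal was not well above background on either wild type array, and its Cy5 signal was so on 1 of the 2. Both probes were designed on an accession that RefSeq now assigns to Serpinb9g, a near copy, so the signal may come from either gene.

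The start sites of 39 of the 48 genes were in a RefSeq promoter table of the assembly GRCm38.p6. The 250 bases before the start are printed for the genes called higher, and for Serpinb9g, because both went up on both wild type arrays and because the copies are alike there. Capitals mark matches, on either strand, to the AP-1 site TGANTCA, the TATA box TATAAA, the GC box GGGCGG, the heat shock element GAANNTTC, the antioxidant response element TGACNNNGC or the CRE TGACGTCA. Serpinb2 has a second listed start 87 bases downstream, and the first is shown. The windows are Serpinb2 at chr1:107511173-107511422 (+), Serpinb9f at chr13:33323827-33324076 (+) and Serpinb9g at chr13:33484540-33484789 (+).
Serpinb2: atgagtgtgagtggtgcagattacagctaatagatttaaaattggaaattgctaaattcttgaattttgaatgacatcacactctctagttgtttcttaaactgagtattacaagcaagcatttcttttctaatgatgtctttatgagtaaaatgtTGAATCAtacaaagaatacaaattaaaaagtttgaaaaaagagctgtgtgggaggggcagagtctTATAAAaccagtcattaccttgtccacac
Serpinb9f: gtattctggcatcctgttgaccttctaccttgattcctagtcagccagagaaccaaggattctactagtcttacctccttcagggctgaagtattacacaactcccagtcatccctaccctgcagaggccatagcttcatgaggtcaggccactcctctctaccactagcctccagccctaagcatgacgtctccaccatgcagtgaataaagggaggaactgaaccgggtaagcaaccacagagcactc
Serpinb9g: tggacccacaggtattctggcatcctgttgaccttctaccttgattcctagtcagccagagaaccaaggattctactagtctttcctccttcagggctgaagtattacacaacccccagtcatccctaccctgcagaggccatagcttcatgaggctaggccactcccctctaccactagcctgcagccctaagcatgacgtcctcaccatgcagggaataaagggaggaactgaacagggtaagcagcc

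The Serpinb2 window held 1 AP-1 match, whose first base lies 94 bases before the start, and 1 TATA box 29 bases before it. An AP-1 match was present in 6.75% of the 32851 windows in the table and in those of 9 of the 39 Serpin genes (23.1%), and a TATA box in 12.4% and in 10 (25.6%). The windows of Serpinb9f and Serpinb9g held none of the 6 motifs. They shared 229 identical bases over 261 aligned columns (87.7%). These matches describe letters only.

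Below the threshold in wild type cells, Serpinb3c gave 0.56 and 1.10 (mean 0.83, SE 0.18, limma adjusted p = 0.0729). Lower but not called were Serpina4-ps1 at -2.05, Serpinb9c at -3.66 and Serpinc1 at -4.38, each with a marked spot left out. The Serpinb9c and Serpinc1 probes read Cy5 far below Cy3 on most arrays, as described below. Serpine2 was at -0.27 on the array where it had a value, the brighter Serpinf1 probe at -0.29 and -0.03, and Serpinh1 at -0.48 and -0.10. The second Serpinf1 probe had no value with marked spots left out, and kept they gave a mean of -1.21. Spots of Serpinb6a and Serpinb6c were marked as outliers on both wild type arrays, and kept they gave means of -0.15 and -0.12. At an unadjusted p under 0.05, 11 of the 46 Serpin genes differed, 7 of them higher, where 19.9% of all genes did so and 10.8% were higher.

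**Figure D2:**
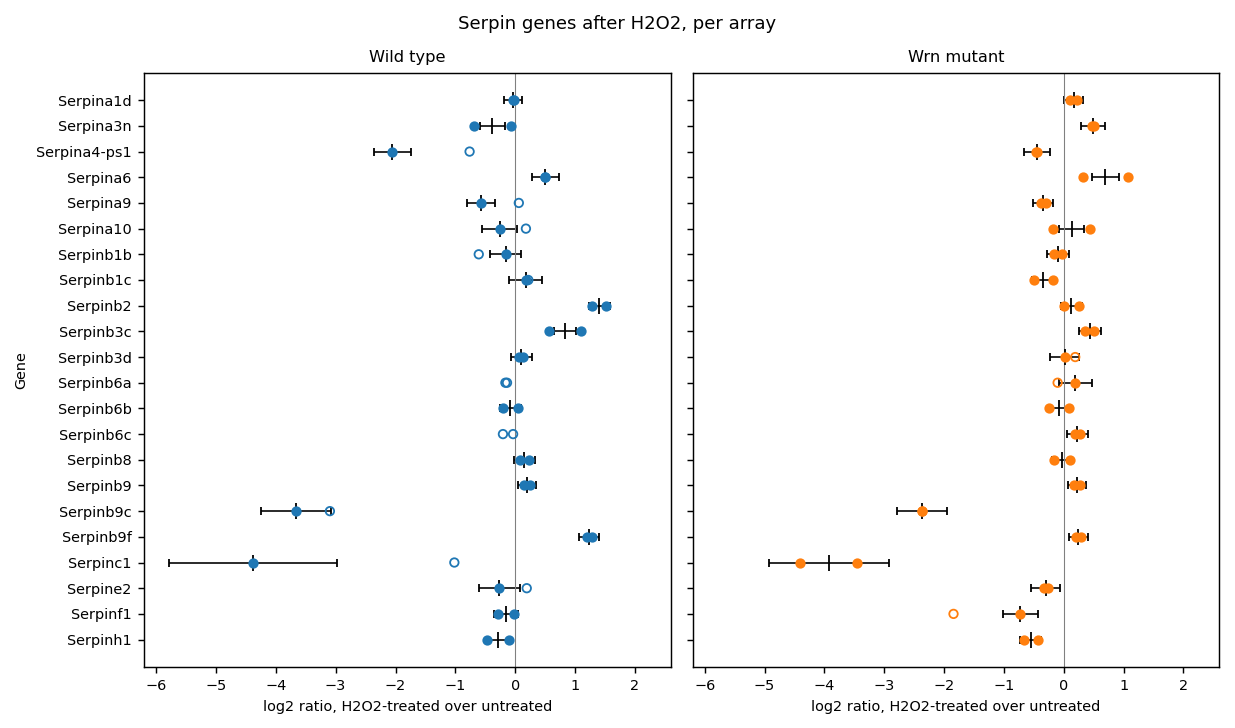
Log2 ratio of H2O2-treated over untreated cells for the 22 named Serpin genes in wild type (left) and Wrn mutant cells (right). Filled points are single arrays, open points are spots marked as outliers and left out of the fit, and the vertical tick with its bar is the fitted mean and SE. Serpinb2 and Serpinb9f lie above 1 on both wild type arrays and below 0.3 on both mutant arrays.

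These calls were near the threshold. They were lost when any of the 4 treatment arrays was left out (0 of the Serpin genes called), while without either genotype array 11 were called. With the spread of the arrays scaled to be equal, 9 were called, 6 higher and 3 lower, in place of 2 higher and 0 lower.

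Genes of the pathway around the plasminogen activators were read from a list of receptors and cofactors through which serpins and their targets act. Of 18 tested, 4 rose and none fell in wild type cells, where 0.454% of all genes rose and 0.399% fell. They were Vldlr, which takes up protease complexes (2.51 and 2.16, mean 2.33, limma adjusted p = 0.0181), Thbd (thrombomodulin, 1.74 on 1 array, limma adjusted p = 0.0474), Procr, the receptor of protein C (1.15 and 1.17, limma adjusted p = 0.0466), and Plaur, the receptor of urokinase (1.04 and 0.99, limma adjusted p = 0.0487). The median of the list was -0.15. Of 23 target proteases, 0 were called. Among them Plau (urokinase) was at 0.89 and 0.62 with a limma adjusted p of 0.0929, and Plat (tissue plasminogen activator) was at -1.14 on the 1 array with a value. Of 14 collagen clients and partners of Serpinh1 with a value, 1 fell, Col5a1 at -1.34 (limma adjusted p = 0.0364).

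The second comparison asked the same of Wrn mutant cells. None of 48 Serpin genes was called by limma, where 0% of all genes were called. At an unadjusted p under 0.05, 9 Serpin genes differed, where 12.6% of all genes did so. The median log2 ratio was -0.02 over the Serpin genes and 0.01 over all genes. No gene of the 3 partner lists was called either.

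The Serpinh1 probe gave -0.67 and -0.43 in mutant cells, with a mean of -0.55 (SE 0.17, limma adjusted p = 0.310). Both probes of Serpinf1 were below 0 there. The brighter one gave -0.73 on replicate 1, and -1.84 on replicate 2 where its spot was marked as an outlier. The other gave -1.01 and -0.82, with a mean of -0.91 (SE 0.18, limma adjusted p = 0.248). Serping1 (C1 inhibitor), whose Cy5 signal was not well above background on either array, had a mean of -0.89 (limma adjusted p = 0.295). Serpina3n, an acute phase inhibitor, gave 0.48 and 0.51 (mean 0.49, SE 0.20, limma adjusted p = 0.419).

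Of the responses to H2O2, none of 46 Serpin genes differed between the genotypes at an adjusted p under 0.05 (limma contrast, 0% of all genes called). At an unadjusted p under 0.05, 5 did so, where 5.83% of all genes did. The mutant response of Serpinb2 was lower than the wild type response by 1.28 (SE 0.25, limma adjusted p = 0.558) and that of Serpinb9f by 0.99 (SE 0.23, limma adjusted p = 0.623). For Serpinh1 the difference was -0.26 (SE 0.25, limma adjusted p = 0.960). Serpinb2 and Serpinb9f passed the threshold in wild type cells and not in Wrn mutant cells, but the difference itself did not pass. Without either genotype array, 5 Serpin genes were called for this difference.

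The third comparison asked how untreated Wrn mutant cells differ from untreated wild type cells. Signs are those of Cy5 over Cy3, read as mutant over wild type, which is likely but not settled. The study's own list of differences runs that way, while the sample labels put wild type RNA in Cy5, and with the dyes as labelled every sign of the genotype arrays turns. The Cy3 channel of the treatment arrays gave a second reading, since it holds untreated RNA of both genotypes, 2 samples each, in 1 dye. Over 567 probes called on the genotype arrays at the stricter threshold of the methods, its mutant minus wild type difference correlated with their ratio at r = 0.936, and 98.8% had the same sign. This check rests on the labels of the treatment arrays. In that Cy3 reading alone, limma called 0 of 34 Serpin genes (0.0759% of all genes), and 0 also at an unadjusted p under 0.05 (9.85% of all genes).

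Read in that direction, Serpinh1 was higher in Wrn mutant cells by 1.92 times. Of 47 Serpin genes, 7 were called, where 19.4% of all genes were called. Serpina6, Serpinb1b, Serpinb9 and Serpinh1 were higher (11% of all genes), and Serpina3n, Serpina4-ps1 and Serpinb9c were lower (8.41% of all genes). With the spread of the arrays scaled to be equal, or with the software's own log ratio, 2 were higher and 3 lower. The median log2 ratio was 0.10 over the Serpin genes and 0.04 over all genes. The share of Serpin genes called was near that of all genes, and without replicate 3 or replicate 4 of the genotype arrays 17 or 11 were called. At an unadjusted p under 0.05, 18 Serpin genes differed, where 35.2% of all genes did so. At the methods' thresholds, 1 of the 7 was called, Serpina4-ps1, where 2.15% of all genes were.

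Serpinh1 gave 1.04 and 0.84, with a mean of 0.94 (SE 0.17, n = 2, limma adjusted p = 0.0124). In the Cy3 channel of the treatment arrays the mutant minus wild type difference was 0.57 (SE 0.35, limma adjusted p = 0.597), the same direction. Untreated mutant RNA read 0.59 higher for this probe in Cy5 on the genotype arrays than in Cy3 on the treatment arrays, where the middle 90% of genes lay between -0.999 and 0.63. Serpinh1 stayed called under 13 of 14 alternatives. Its window, shown as that of the collagen chaperone whose partners are described next, lies at chr7:99353240-99353489 on the minus strand of GRCm38.p6. The window holds 1 GC box (32.7% of all windows, 7 of the 39 Serpin genes, 17.9%). It holds no match to GAANNTTC (found in 6.69% of all windows), the only form of the heat shock element searched. Other forms and bases outside the window were not searched, so whether the gene has a heat shock element was not tested.
Serpinh1: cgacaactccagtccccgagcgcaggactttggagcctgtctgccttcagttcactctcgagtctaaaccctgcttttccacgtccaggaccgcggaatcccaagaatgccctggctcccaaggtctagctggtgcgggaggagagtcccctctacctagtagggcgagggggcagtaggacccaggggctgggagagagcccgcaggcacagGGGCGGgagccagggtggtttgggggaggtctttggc

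The collagen clients and partners of Serpinh1 were given by a list of collagens and of proteins that modify or fold them. Of 17 with a value on the genotype arrays, 5 were higher and 1 was lower, where 11% of all genes were higher and 8.41% lower. The median log2 ratio of the list was 0.44, and that of all genes 0.04. Those higher were Col3a1 (1.67 on 1 array), Plod2 (1.23), Col1a1 (1.03 on 1 array), P4ha2 (1.00 on 1 array) and Fkbp10 (0.67), and Col5a2 was lower at -0.92. In the Cy3 channel of the treatment arrays 5 genes of the list were tested and 0 called, with a median of -0.22. Of the called genes it covered only Plod2 (1.08) and Col5a2 (-0.62), in the same directions. Fibroblast markers were also higher on the genotype arrays, in 7 of 11, where 11% of all genes were, and none was lower, with Dcn at 2.76 and Pdgfra at 2.21 on 1 array. The summed Cy3 level of the 12 markers was 65903 to 76938 in untreated wild type cells and 99307 to 114869 in untreated mutant cells. Bright genes weigh most in this sum, and the brightest, Vim and S100a4, were not among the 7. Vim was at 0.53 (limma adjusted p = 0.182) and S100a4 had no value with its marked spots left out. The part of these markers in the Serpinh1 difference was not tested.

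**Figure D3:**
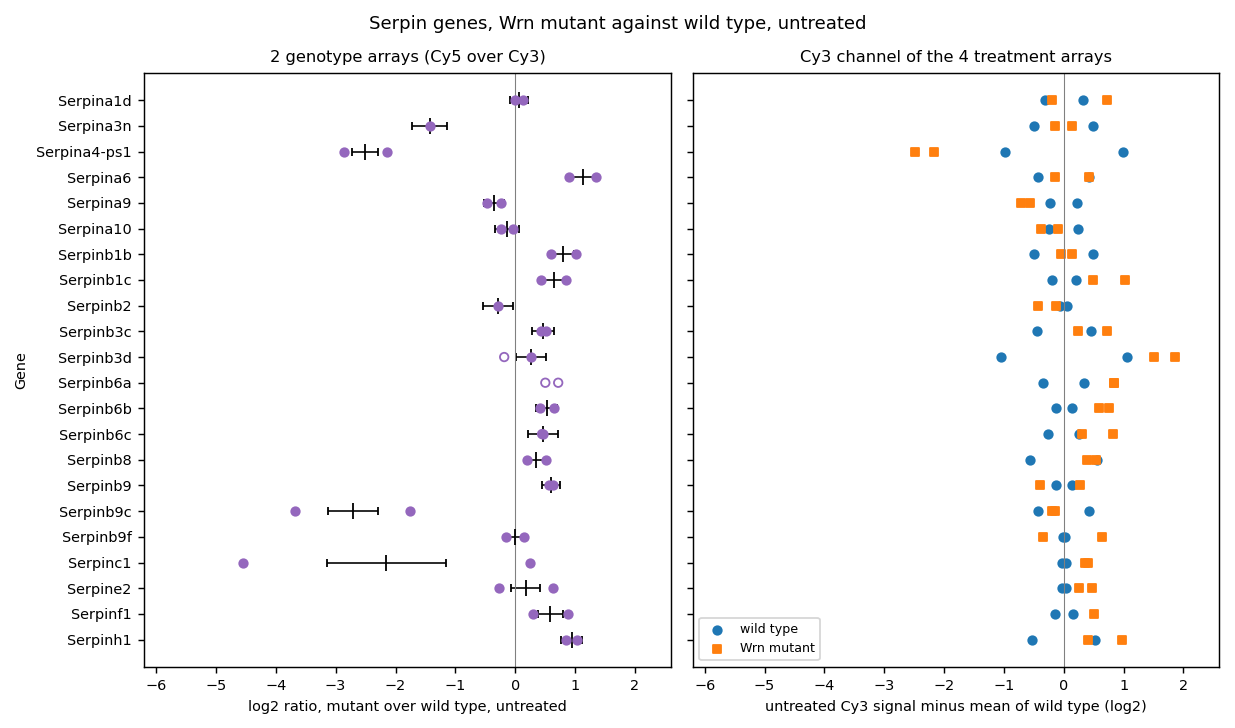
Untreated Wrn mutant against untreated wild type cells for the 22 named Serpin genes. Left, log2 ratio of the genotype arrays, with filled points for single arrays, open points for spots marked as outliers, and a tick with a bar for the fitted mean and SE. Right, Cy3 signal on the treatment arrays minus the wild type mean, marked spots included. Mutant values of Serpina4-ps1 lie below the wild type ones on both sides, whereas those of Serpinb9c lie within the wild type spread on the right.

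Among the other genes of clade B, Serpinb1b, related to the inhibitor of neutrophil elastase, gave 0.59 and 1.01 (mean 0.80, SE 0.18, limma adjusted p = 0.0308). Serpinb9 gave 0.56 and 0.63 (mean 0.59, SE 0.15, limma adjusted p = 0.0352). Its Cy5 signal, read as mutant, was not well above background on either genotype array. Serpinb1b and Serpinb9 were called under 7 of 14 and 6 of 13 alternatives. In the Cy3 channel their differences were 0.04, with marked spots kept, and -0.24. The second probe of Serpinb1c gave 0.51 and 1.34 (mean 0.93, limma adjusted p = 0.0330), and the brighter one 0.43 and 0.86 (mean 0.64, limma adjusted p = 0.0661). The second probe of Serpinb9f was called at 0.68 (limma adjusted p = 0.0430), whereas the brighter one was at -0.00. Neither Serpinb9f probe was well above background in Cy5 on either genotype array. Serpinb3c, Serpinb6b, Serpinb6c and Serpinb8 had means between 0.35 and 0.53 and were not called, and Serpinb6a, marked on both arrays, gave 0.61 with its spots kept.

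Of clade A, Serpina6 (corticosteroid-binding globulin, a carrier with no inhibitory role) gave 0.90 and 1.35 (mean 1.13, SE 0.22, limma adjusted p = 0.0150), while its Cy3 difference was -0.25, the opposite sign. Its Cy5 also lay above Cy3 after H2O2, at 0.50 in wild type and 0.69 in mutant cells. Untreated mutant RNA read 5.75 for it in Cy5 on the genotype arrays and 5.06 in Cy3 on the treatment arrays. The part of the dye was not tested. Serpina3n gave -1.43 on replicate 3 alone (SE 0.29, limma adjusted p = 0.0209). Its Cy5 signal was not well above background there, which makes it at least 1.90-fold lower, and its Cy3 difference was -0.31. The bright probe of Serpina4-ps1, named as a pseudogene, gave -2.87 and -2.14 (mean -2.50, SE 0.22, limma adjusted p = 0.00202), and its second probe gave -0.27 and -0.77 (mean -0.52, limma adjusted p = 0.0920). In the Cy3 channel these probes differed by -1.95, marked spots kept, and by 0.60. The pair thus agreed in sign on the genotype arrays and not in the other reading. Cy5 of the bright probe also lay below Cy3 after H2O2, at -2.05 in wild type and -0.45 in mutant cells. Untreated mutant RNA read 5.13 for it in Cy5 on the genotype arrays and 6.14 in Cy3 on the treatment arrays. Here too the part of the dye was not tested.

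The markers of other cell types gave the setting of these values. On the genotype arrays Mcpt8 was lower by 4.82 on the log2 scale (limma adjusted p = 0.000407) and Mcpt4 by 0.98. They were the only 2 called of the 9 genes listed as mast cell markers, whose median log2 ratio was -0.02. The summed Cy3 level of the 9 genes was 1127 to 1407 in untreated wild type cells and 310.0 to 329.7 in untreated mutant cells. Bright genes weigh most in such a sum, and Mcpt8 was the brightest, with a mean log2 intensity of 7.53. Ambp was the only hepatocyte marker of 12 called, at -2.94, 2 keratinocyte markers of 10 were lower, and no macrophage marker was called. Of 8 neuron markers, 1 was higher and 1 lower. Of the 24 target proteases of serpins, 9 were higher and 3 lower, where 11% and 8.41% of all genes were. C1s (2.50) and C1r (1.54), which Serping1 blocks, Ctsk (1.49) and Plau (0.88), which Serpinb2 blocks, were among the higher ones, as was Gzma (1.16), a granule protease of blood cells. Gzme, Gzmb and Mcpt4, also granule proteases, were the lower ones. Gzmb, and F10 among the higher ones, were not well above background in Cy5 on any array. Of the 18 receptors and cofactors, Vldlr (2.57), F3, the tissue factor (1.29 on 1 array), Gpc1 (1.06) and Procr (0.79) were higher, and F2rl1 (-2.56 on 1 array), Itgav (-1.70), Sdc1 (-0.98) and Thbd (-0.69) were lower, which makes 4 in each direction.

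A pair of Serpin probes read Cy5 far below Cy3 on most arrays, whichever RNA the dyes carried. The Serpinb9c probe gave -3.66 and, marked as an outlier, -3.10 in wild type cells, -2.37 and -2.37 in mutant cells, and -3.68 and -1.76 on the genotype arrays. Its mean for genotype was -2.72 (SE 0.42, limma adjusted p = 0.00943). Yet untreated mutant RNA read 2.20 lower in Cy5 on the genotype arrays than in Cy3 on the treatment arrays, and in the Cy3 channel alone mutant and wild type cells differed by -0.01, marked spots kept. With the marked spot kept, Serpinb9c was called lower in treated wild type cells too (limma adjusted p = 0.0291).

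The brighter of the Serpinc1 probes read Cy5 far below Cy3 on 4 of the 6 arrays. Serpinc1 is antithrombin, a liver product that blocks thrombin. This probe gave -4.38 and, marked as an outlier, -1.02 in wild type cells, -4.40 and -3.45 in mutant cells, and -4.55 on genotype replicate 3, but 0.25 on replicate 4. None of the 3 means passed the test of the joint fit (limma adjusted p = 0.163, 0.273 and 0.178). Untreated mutant RNA read 3.68 lower in Cy5 than in Cy3. The other Serpinc1 probe gave means of -0.16, -0.19 and -0.22, so the probes of the gene differed by up to 3.73. Of the 15 Serpin genes with several probes, 3 differed by over 1 on the log2 scale in some comparison, marked spots kept, namely Serpinc1, Serpina4-ps1 and Serpinf1.

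**Figure D4:**
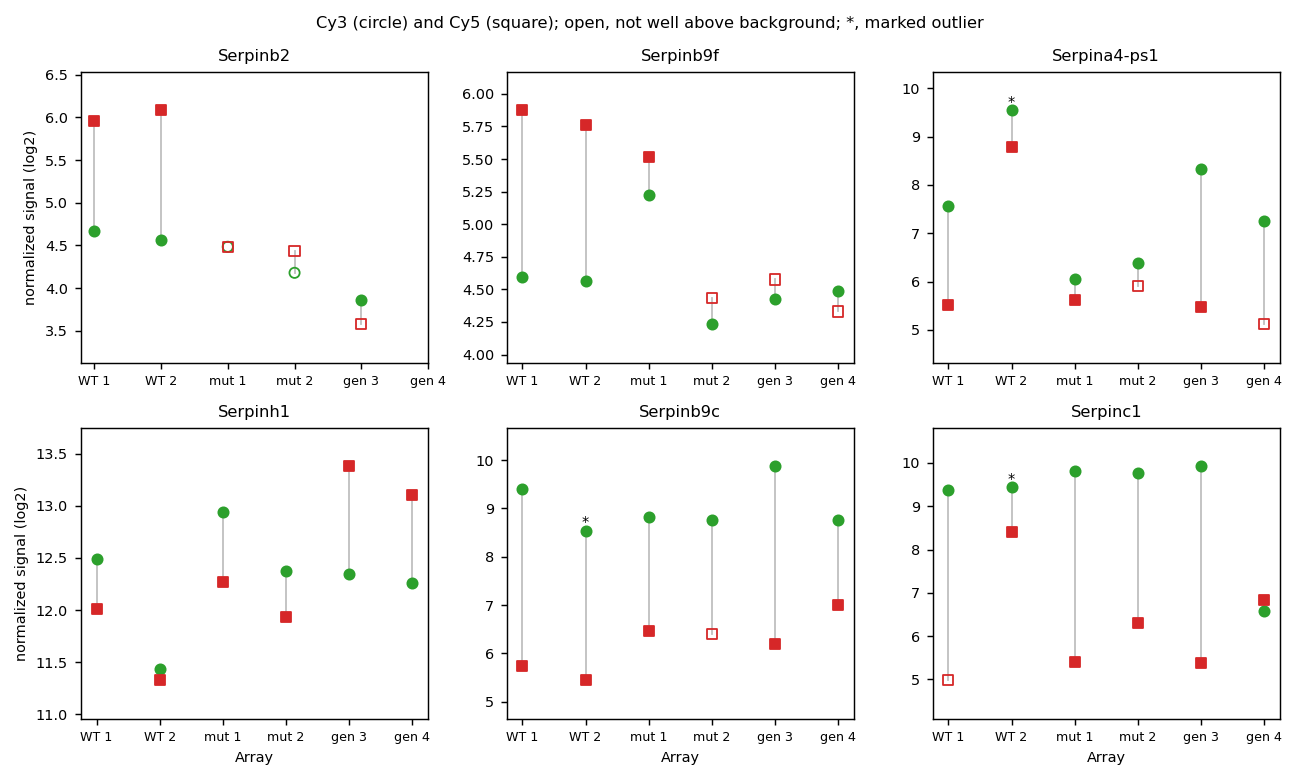
Normalized log2 signal in Cy3 (green circles) and Cy5 (red squares) on each array for 6 Serpin genes, with open symbols where the signal was not well above background and an asterisk where the spot was marked as an outlier. WT and mut are the treatment arrays, with treated RNA in Cy5, and gen the genotype arrays. For Serpinb9c the Cy5 signal is below Cy3 on all 6 arrays, for Serpina4-ps1 the highest signals are those of wild type RNA, and Serpinb2 has no value on the last array.

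The 26 Serpin genes outside the rule for named genes, Serping1 among them, had mean log2 intensities from 3.61 (Serpind1) to 6.52 (Serpina3m), and none was called. Their log2 ratios ran from -0.49 (Serpina5) to 0.85 (Serpina1b) in wild type cells, from -0.89 (Serping1) to 0.59 (Serpini2) in mutant cells and from -0.63 (Serpina3g) to 1.01 (Serpina1b) between genotypes. Serpine2, above background in both dyes on all arrays, was at -0.27 and 0.63 between genotypes (mean 0.18, SE 0.24, limma adjusted p = 0.636). Serpinf1 gave 0.88 and 0.30 on its brighter probe (mean 0.59, SE 0.21, limma adjusted p = 0.0951). Its second probe had the opposite sign, at -0.17, or -0.74 with marked spots kept. Serpina1d, Serpina9, Serpina10 and Serpinb3d were between -0.35 and 0.26 between genotypes, and none of them was called in any comparison.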

How the data were processed

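Two-colour Agilent arrays measured RNA of mouse embryonic fibroblasts. The authors deposited, per array, the spots' mean and background intensity in both dyes, the flags of Feature Extraction 7.5.1, and its log10 ratio, and a series table of log2 ratios (Cy5 over Cy3, background subtracted, loess). The flags have no unit. The labels give total RNA. The paper gives another RNA preparation and software version.

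Local background medians were subtracted from mean intensities, and log2 ratios were normalized by loess within arrays with limma 3.58.1 (R 4.3.3, with version 1.17.8 of data.table). Control spots had weight 0, spots marked as outliers were left out of the ratios, and spots of a probe were averaged. One lmFit and eBayes fit held all 6 arrays, with 1 coefficient per comparison and 3 residual degrees of freedom. P-values were two-sided, Benjamini-Hochberg adjusted over all non-control probes, and a call needed an adjusted p under 0.05. The methods' thresholds were an adjusted p of 0.005, a mean log2 intensity of 6 and a fold of 2 (not for genotype). Channel signals were taken after loess and Aquantile. The Cy3 signals of the 4 treatment arrays, quantile normalized, were fitted apart. The small number of arrays limits the precision.

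Values are given for genes above background in both dyes on all arrays or with a called probe, also at the methods' thresholds in a comparison fitted alone. From the other lists, genes called or brightest could be named. The members and lists were chosen with earlier results of these data known. Names were matched by accession for 44 of the 48 genes. A further Serpin gene is not reported here. Scripts were tested on simulated data. Motifs and plots used Python 3.11.15, pandas 2.3.3 and matplotlib 3.10.9. Alternatives were normexp with an offset of 50, outlier spots kept, an intensity filter, the methods' thresholds, comparisons fitted alone, the software's ratio, the series table, scaling between arrays, the replicate block and each array left out.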

Additional observations from a re-analysis of the deposited data

Results flagged for a closer look

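For 2 Serpin genes both wild type arrays and both Wrn mutant arrays moved in opposite directions after H2O2, so the mutant minus wild type response was looked at again. For Serpina3n this difference was 0.87 on the log2 scale (limma adjusted p = 0.807, unadjusted p = 0.0227), with -0.69 and -0.07 in wild type cells against 0.48 and 0.51 in mutant cells. Its treated (Cy5) signal was well above background on neither wild type array and on 1 of the 2 mutant arrays. For Serpina1d the difference was 0.20 (limma adjusted p = 0.971), with values close to 0 on all 4 arrays. Neither difference passed the test.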

How the results depend on the processing

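Among wild type responses, where 2 Serpin genes were called, the count was 0 at the methods' thresholds, 12 with the 2 arrays fitted alone, 5 with the software's log ratio, 9 after scaling between arrays, and 1 with outlier spots given no weight in the loess curve, an alternative chosen after seeing the data. Leaving out single arrays gave 0 to 11. Among mutant responses, where 0 were called, it was 8 fitted alone, 4 after scaling, and 0 to 7 leaving out single arrays. Among genotype differences, where 7 were called, it was 1 at the methods' thresholds, 2 fitted alone, and 4 to 17 leaving out single arrays. It was 17 without replicate 3, 11 without replicate 4, and 4 without either of the mutant treatment arrays. After scaling, Serpinb1b and Serpinb9 were no longer called. Leaving out single arrays gave 0 to 5 for the difference of responses and 0 to 5 for the Cy3 comparison, 5 without wild type replicate 1. The cause of these shifts was not tested. Below these counts, of 1228 values of single genes under the alternatives, 1138 kept their direction and side of the threshold, or stayed below it, 58 passed it newly and 32 no longer passed. No called value changed sign, and 46 uncalled ones did.

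Whether same-numbered wild type and mutant treatment arrays were paired is not settled. Deviations of same-numbered arrays correlated at -0.0366, but an effect shared by both RNA samples of an array cancels in its ratio. With the replicate block, 0 Serpin genes were called in wild type cells, and 0 also in mutant cells, for the difference of responses and in the Cy3 comparison. The genotype arrays share no replicate numbers with the others and had no such fit. A block of slide or extraction day was not run, since each slide holds 1 array and each genotype array has an extraction day of its own.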
